A study of Drosophila melanogaster with 12 samples.

Results

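The genes described here handle triglyceride, the energy store that Drosophila larvae build in the lipid droplets of the fat body. They were taken by name: mino, Lpin and mdy for glycerolipid synthesis, the perilipins Lsd-1 and Lsd-2, and the droplet lipases bmm and Hsl. Of these 7 genes, 6 were paired with a probe set (1 each) in the platform annotation, and all 6 probe sets were among the 9669 probe sets that the authors kept as Present in their dChip table. Hsl, the hormone-sensitive lipase homologue, was not paired with a probe set in the annotation used here and is not analysed here.

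RNA of whole larvae was measured on 12 one-colour Affymetrix Drosophila Genome 2.0 arrays, 3 in each of 4 groups. Control larvae had the genotype EP2449(precise excision)/KG08976(precise excision): both P-elements had been excised precisely. Mutant larvae had the genotype HNF4(del33)/HNF4(del17), a pair of deletion alleles of HNF4, a nuclear receptor; the samples are labelled HNF4 null. All animals ate normal food until late L2, and were then either fed on or washed and kept for 24 h on paper wetted with buffer; the RNA came from apparently healthy animals that had become L3, labelled mid-L3. No source used here says how many animals a sample pooled, and p-values measure the spread between these triplicate samples.

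Triglyceride is assembled stepwise in the endoplasmic reticulum and mitochondrial outer membrane. A glycerol-3-phosphate acyltransferase adds the first fatty acid, a phosphatidate phosphatase makes diacylglycerol, and a diacylglycerol acyltransferase adds the last fatty acid. Perilipins coat the finished droplet and control the access of lipases, and the lipases release fatty acids from it when the animal runs short of food. In flies, adipokinetic hormone and the lipase brummer act in partly separate routes of this mobilisation.

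Some facts of the arrays bear on every result. Replicates correlated at r = 0.968 to 0.994 over log2 values, and array medians were 483.3 to 551.8. Control fed replicate 3 had the lowest array weight (0.287, where the other arrays had 0.454 to 4.46), followed by mutant starved replicate 2 (0.454). The highest was that of mutant fed replicate 3 (4.46, against 0.54 and 0.70 in the other fed mutants). Calls with array weights that use the fed mutants thus rest mostly on that array. The estimation of these weights stopped before its tolerance was reached. Lsp2, a serum protein gene that the fat body switches on during L3, read 18373, 16372 and 290 in fed controls and 13857, 328 and 780 in fed mutants, against 287 to 374 in the 6 starved arrays. The fed arrays thus differed among themselves in this marker, within each genotype, and its part in the fed values below was not tested. The Hnf4 probe set read 1207 to 1327 in control fed, 1482 to 1641 in mutant fed, 1736 to 1937 in control starved and 2784 to 3190 in mutant starved arrays. It was not lower in the mutants, and since no source used here places its probes against the deleted stretches, it checks no genotype label.

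**Figure D1:**
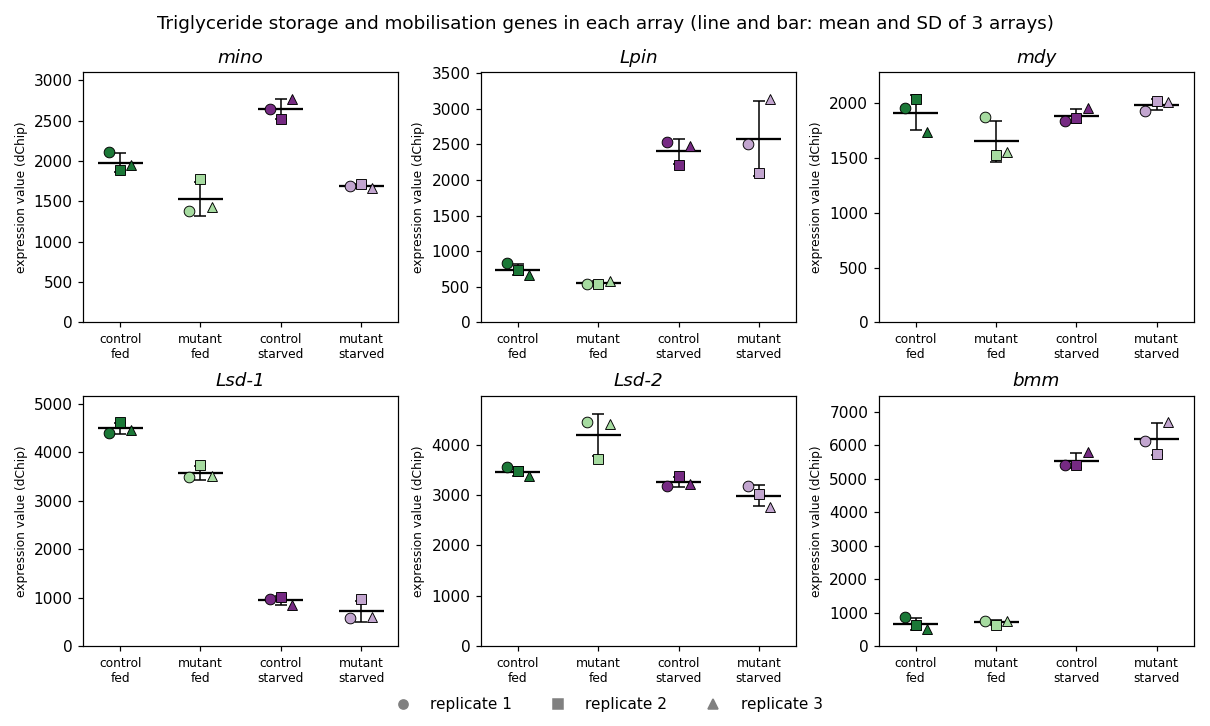
Expression values (dChip, linear scale, each axis from 0) of the 6 measured genes in every array by group; symbols are single arrays, the line and bar are the mean and SD of 3 arrays. In bmm all starved arrays lie at 5391 or above and all fed arrays at 867 or below, in Lsd-1 the order is turned, and mdy stays between 1528 and 2041 in all 12 arrays.

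The response to starvation was large in 3 of these genes and small or undetected in the other 3, as the plot of values by array shows. The lipase gene bmm and the phosphatidate phosphatase gene Lpin rose and the perilipin gene Lsd-1 fell, in controls and in mutants alike. In RNA of whole larvae, fewer cells of a type and less RNA per cell cannot be told apart. In controls 3 of the 6 genes rose and 1 fell, against 68.2% of all probe sets called in this comparison (36.1% higher and 32.1% lower). In mutants 3 rose and 2 fell, against 75.7% of all probe sets (37.5% higher and 38.3% lower). The arrays did not overlap for 4 of 6 genes in controls and 5 of 6 in mutants, where 72.4% and 80.6% of all probe sets did not. With that background the counts do not set these genes apart; the sizes are given below as ranks among the 9669 probe sets. Differences are log2 of the values raised to a floor of 16, with the standard error of limma's fit over all 12 arrays, and a call is an adjusted p under 0.05 (Benjamini-Hochberg over all probe sets).

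Brummer (bmm) encodes the fly homologue of adipose triglyceride lipase, which cleaves stored triglyceride. Its expression value was 867, 620 and 500 in fed controls and 5412, 5391 and 5801 in starved controls. In mutants it was 735, 622 and 761 when fed and 6121, 5730 and 6674 when starved. Every starved array was above every fed array, and the fed controls had the widest relative spread (SD 28.3% of the mean), with replicate 1 highest and replicate 3 lowest. The rise was 8.57-fold in controls (log2 3.10 ± 0.16 SE, n = 3 per group, limma adjusted p = 1.91e-07) and 8.76-fold in mutants (log2 3.13 ± 0.16, adjusted p = 6.67e-08). It was the 30th largest rise among all probe sets in controls and the 42nd largest in mutants. The responses of the genotypes differed by log2 0.03, with a 95% interval of -0.48 to 0.54 (adjusted p = 0.959).

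Between genotypes, bmm differed by log2 0.12 (95% interval -0.24 to 0.49, adjusted p = 0.822) in fed larvae and by log2 0.16 (-0.21 to 0.52, adjusted p = 0.698) in starved larvae. Neither difference passed the threshold, and the arrays of the genotypes overlapped on either diet. Without control fed replicate 3 the fed difference was log2 -0.06 (adjusted p = 0.853).

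Lipin (Lpin) dephosphorylates phosphatidate to diacylglycerol, the precursor of both triglyceride and membrane phospholipids. It read 827, 732 and 664 in control fed arrays, and 2537, 2206 and 2476 in control starved arrays. The mutant arrays read 534, 537 and 578 when fed and 2508, 2096 and 3143 when starved. Starved arrays of either genotype lay above all fed arrays, and the starved mutants spread most (SD 20.4% of the mean). Lpin rose 3.26-fold in controls (log2 1.70 ± 0.14, limma adjusted p = 1.91e-06) and 4.64-fold in mutants (log2 2.21 ± 0.14, adjusted p = 1.72e-07), the 221st and 163rd largest rises of 9669.

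In the series matrix, the other deposited table of these arrays, fed Lpin values overlapped between genotypes (399 in control fed and 407 in mutant fed replicate 3). In the dChip values the mutant fed arrays were all below the control fed arrays for Lpin. The fed difference was log2 -0.43 ± 0.14 with an unadjusted p of 0.00923 and did not pass after adjustment in limma (adjusted p = 0.238, with 0.0949 to 0.532 over 23 alternative settings). In starved larvae the arrays overlapped and the difference was log2 0.08 (95% interval -0.21 to 0.38, adjusted p = 0.825). The difference of the responses was log2 0.51 (95% interval 0.09 to 0.93) and did not pass (adjusted p = 0.194, with 0.0531 to 0.474 over the alternatives).

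Lsd-1, the fly perilipin 1, sits on droplets and is the perilipin through which adipokinetic hormone signalling acts on lipolysis. It read 4404, 4621 and 4474 in control fed arrays and 967, 1010 and 848 in control starved arrays. In mutants it read 3484, 3744 and 3511 when fed and 572, 973 and 603 when starved. All starved arrays lay below all fed arrays, and mutant starved replicate 2 alone among the starved mutants lay within the range of the starved controls. Lsd-1 was 4.79-fold lower in starved than in fed controls (log2 -2.26 ± 0.16, limma adjusted p = 1.15e-06) and 5.15-fold lower in mutants (log2 -2.36 ± 0.16, adjusted p = 4.04e-07). These were the 60th and 89th largest falls of 9669, and the responses differed by log2 -0.10 (95% interval -0.62 to 0.41, adjusted p = 0.851).

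Between genotypes, Lsd-1 had lower means in mutants on either diet without passing the threshold. In fed larvae the arrays did not overlap and the difference was log2 -0.33 ± 0.16 (limma adjusted p = 0.501, with 0.113 to 0.778 over the alternatives). That error is shared by all groups and is not the spread of the fed arrays alone. The SD was 2.5% of the mean in control fed and 4.0% in mutant fed arrays, against 31.1% in mutant starved arrays. In starved larvae the difference was log2 -0.44 (95% interval -0.80 to -0.07, adjusted p = 0.154). This value moved with single arrays of the starved mutants: it was log2 -0.68 and called without replicate 2 (adjusted p = 0.0016), and -0.29 without replicate 1 (adjusted p = 0.484). With array weights it was -0.54 and called (adjusted p = 0.00575), and in the other alternatives it lay between those values.

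Some fat body markers, though not all, fell on starvation as Lsd-1 did. Of 9 such genes written down, 4 were measured: Lsp2, the lipoprotein precursor gene apolpp, the triglyceride transfer protein gene Mtp and the lipid transfer particle gene Apoltp. Their summed value was 31257 to 49224 in control fed, 24774 to 26129 in control starved, 29872 to 43926 in mutant fed and 21722 to 26231 in mutant starved arrays. Mtp fell on starvation by 1.30 on the log2 scale in controls and by 1.40 in mutants, and apolpp fell by 0.39 and 0.51. Apoltp did not pass the threshold (log2 0.32 and 0.10), nor did Lsp2 (-3.70 ± 1.5 and -2.25 ± 1.5). The count of 2 markers called lower became 1 in the series matrix and at a change of 1.5-fold or more, in either genotype. In controls 1 marker was called higher on starvation with array weights and without control fed replicate 3. Between genotypes 0 of the 4 markers were called on either diet by limma in the main fit. The only marker with an unadjusted p under 0.05 there was Mtp, at log2 -0.30 in fed (adjusted p = 0.413) and -0.39 in starved larvae (adjusted p = 0.0897). With array weights, and without mutant starved replicate 2, 2 markers were called lower in starved mutants than in starved controls. Lsd-1 was called in these same settings. Mutant starved replicate 2, the array with the high Lsd-1 value, was the highest of the starved mutants for Mtp (855, against 584 and 629), apolpp (18730, against 13672 and 13826) and Lsp2 (374, against 287 and 305), and the lowest for Apoltp (6272, against 7178 and 7229). The part of these markers in the values of the storage genes was not tested.

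Markers of other tissues also moved on starvation. Of 4 measured midgut markers, the trypsin gene alphaTry rose in controls (log2 1.73) and mutants (1.54), and the maltase gene Mal-A1 fell in mutants (-0.74). Of 3 measured muscle markers, the actin gene Act87E fell in controls (-0.71) and the myosin light chain gene Mlc2 in mutants (-0.53), and the single measured neuron marker, nSyb, fell in mutants (-0.47). The fall of Act87E was lost in the series matrix, with quantile normalization, and without control fed replicate 1 or 2 or control starved replicate 1 or 2. The Act87E probe set is of the Affymetrix kind whose probes can match transcripts of more than 1 gene. The falls of Mlc2 and nSyb in mutants were lost in the series matrix and at a change of 1.5-fold or more, and in the series matrix nSyb was called higher on starvation in both genotypes. Without control fed replicate 2, 1 midgut marker was called lower in starved than in fed controls. With quantile normalization 1 muscle marker was called higher on starvation in either genotype. In mutants 1 was called higher in the series matrix and with array weights too. Between genotypes 0 of these markers were called by limma on either diet, with an unadjusted p under 0.05 for 1 midgut marker in fed and for 1 midgut and 1 muscle marker in starved larvae. The muscle marker was Mlc2, at log2 -0.42 (adjusted p = 0.0532), and the muscle count of 0 in starved larvae was 1 in 7 of the 23 alternatives, among them those without control fed replicate 2 or 3, control starved replicate 3 or mutant starved replicate 2. A midgut marker was called with array weights on either diet, without control fed replicate 1 in fed larvae and with the compared arrays alone in starved larvae. The summed midgut value was 28241 to 33089 in control starved and 35083 to 36792 in mutant starved arrays, and 23855 to 31242 and 29936 to 34828 in control and mutant fed arrays. The trypsin genes betaTry and alphaTry make up most of this sum. Between starved mutants and starved controls they differed by log2 0.14 and 0.50, while Mal-A1 differed by -0.01 and Vha100-4 by -0.02. The summed muscle value was 24405 to 27416 in control starved and 25708 to 33373 in mutant starved arrays, and 25349 to 36239 and 29270 to 33540 in control and mutant fed arrays. The neuron marker was 578 to 702 and 514 to 579 in control and mutant starved arrays, and 605 to 790 and 729 to 782 in control and mutant fed arrays. The part of these tissues in the values of the storage genes was not tested.

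Midway (mdy) encodes diacylglycerol acyltransferase 1, which completes triglyceride. Its values were 1960, 2041 and 1736 in control fed, 1871, 1528 and 1554 in mutant fed, 1833, 1865 and 1952 in control starved and 1928, 2017 and 2011 in mutant starved arrays. These are the flattest values of the 6 genes, and of the 4 comparisons of groups the arrays were apart only between fed and starved mutants. In controls starvation changed mdy by log2 -0.02 (95% interval -0.22 to 0.18, limma adjusted p = 0.862). In mutants it rose by log2 0.27 ± 0.092 (adjusted p = 0.019), a call that depends on the scaling and on single arrays. It was lost in the series matrix (log2 0.23, adjusted p = 0.181), with quantile normalization (0.20, adjusted p = 0.107) and with median centring (0.14, adjusted p = 0.223), and without mutant fed replicate 2 (adjusted p = 0.0742), mutant fed replicate 3 (0.0719) or mutant starved replicate 3 (0.0519). Median centring by itself moved the median of all probe sets in this comparison from log2 -0.04 to -0.17. The mdy probe set is of the Affymetrix kind whose probes can match transcripts of more than 1 gene.

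Lsd-2, the fly perilipin 2, shields stored triglyceride from lipolysis. It read 3552, 3470 and 3372 in control fed arrays and 4442, 3710 and 4413 in mutant fed arrays. After starvation it read 3181, 3377 and 3212 in controls and 3177, 3018 and 2762 in mutants. The genotypes did not overlap on either diet, with mutants higher when fed and lower when starved, but in starved larvae the nearest arrays, 3181 and 3177, were almost level. In the series matrix they overlapped when fed (2970 to 3585 in controls, 3124 to 4083 in mutants) and when starved (2599 to 2832 and 2098 to 2726). In the dChip values the difference was log2 0.27 ± 0.086 in fed larvae (limma adjusted p = 0.245) and -0.13 ± 0.086 in starved larvae (adjusted p = 0.478), and neither passed. Starvation lowered Lsd-2 in mutants by 0.49 on the log2 scale (SE 0.086, adjusted p = 0.000385; fold 1.40), while in controls the difference was log2 -0.09 (95% interval -0.28 to 0.10, adjusted p = 0.371). The difference between these responses was log2 -0.40 (95% interval -0.66 to -0.13) with an unadjusted p of 0.00764 and did not pass (adjusted p = 0.115), apart from the fit with array weights (log2 -0.44, adjusted p = 0.0337).

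Minotaur (mino) encodes a glycerol-3-phosphate acyltransferase, which makes lysophosphatidate at the start of glycerolipid synthesis. Its values were 2111, 1885 and 1947 in fed controls and 1385, 1776 and 1429 in fed mutants. In starved larvae they were 2647, 2516 and 2773 in controls and 1694, 1716 and 1662 in mutants. The genotypes did not overlap on either diet, and the starved mutants were the tightest group (SD 1.6% of the mean). mino alone among the 6 genes was called between genotypes. In starved mutants it was 1.56-fold lower than in starved controls (log2 -0.64 ± 0.096, limma adjusted p = 0.00233), the 330th lowest difference of 9669. In all 23 alternatives it kept that direction and its call, with log2 values of -0.68 to -0.59 and adjusted p of 8.74e-05 to 0.022. Many of these alternatives, such as leaving out a fed array, cannot change the log2 value and bear on the adjusted p alone.

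In fed larvae the mino difference was log2 -0.38 ± 0.096 (unadjusted p = 0.0022, limma adjusted p = 0.124) and did not pass, except without mutant fed replicate 2 (log2 -0.49, adjusted p = 0.0232) and with array weights (-0.43, adjusted p = 0.048). Starved controls had 1.34-fold more mino transcript than fed controls (log2 0.42 ± 0.096, adjusted p = 0.00276). In mutants the starvation difference was log2 0.15 (95% interval -0.06 to 0.36, adjusted p = 0.165; 0.27 and adjusted p = 0.0134 without mutant fed replicate 2). The difference between the responses, log2 -0.26 (95% interval -0.56 to 0.03), did not pass (adjusted p = 0.349), so a rise confined to controls was not shown.

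**Figure D2:**
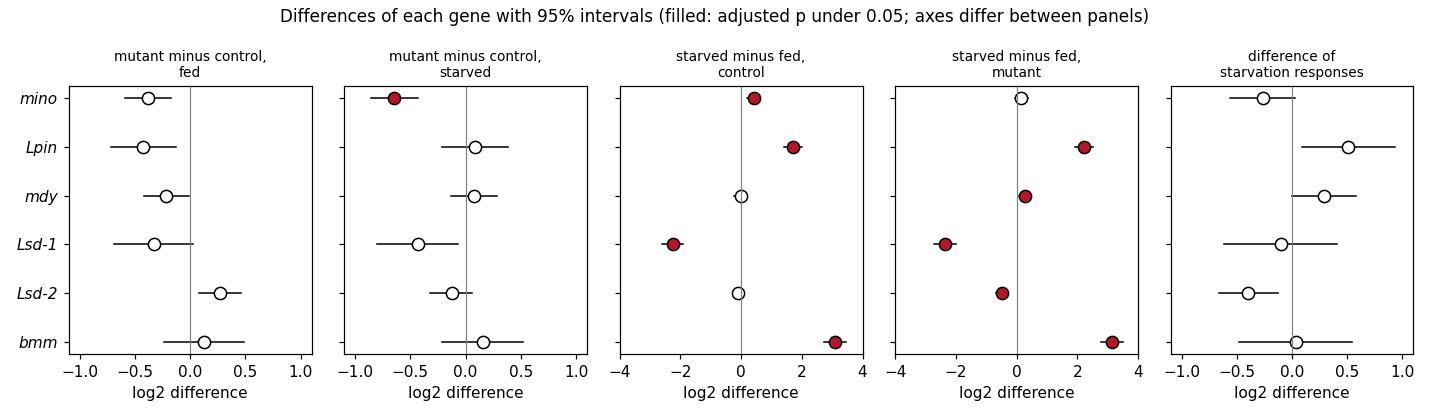
Log2 differences with 95% intervals for the 6 genes (rows) in the 5 comparisons (panels; the x axis is wider for starvation); filled points have a limma adjusted p under 0.05. Starvation moved bmm, Lpin and Lsd-1 in both genotypes, mino in starved mutants is the single filled point between genotypes, and no point is filled for the difference of the responses.

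The comparison of genotypes asked which of these transcripts depended on HNF4. In fed larvae 0 of 6 were called by limma (4 had an unadjusted p under 0.05, as had 11.1% of all probe sets), where 1.05% of all probe sets were called, and the arrays of the genotypes did not overlap for 4 of 6 (mino, Lpin, Lsd-1 and Lsd-2), where 13.6% of all probe sets did not. In starved larvae 1 of 6 was called, mino, lower in mutants, where 7.61% of all probe sets were called (3.91% higher and 3.70% lower), and 2 of 6 had an unadjusted p under 0.05 (20.2% of all probe sets). The arrays did not overlap for mino and Lsd-2, where 29.7% of all probe sets did not. These separations are those of the dChip values. In the series matrix Lsd-2 overlapped on either diet and Lpin in fed larvae, while mino stayed apart on either diet and Lsd-1 in fed larvae. For the difference of the starvation responses 0 of 6 were called by limma (3 had an unadjusted p under 0.05, as had 17.5% of all probe sets), against 2.59% of all probe sets. The median log2 difference of the 6 genes was -0.27 in fed and -0.03 in starved larvae, where the median of all probe sets was -0.01 on either diet.

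The size of the starvation response was set beside the same response of the other genotype. The controls and the mutants share no array in this comparison. bmm and Lsd-1 lay close to equality, Lpin above it and Lsd-2 below it, and for none of the 6 genes did the difference pass the threshold. In the series matrix, the other deposited table of these arrays, the rise of bmm was log2 3.69 in controls and 3.57 in mutants, the rise of Lpin 1.78 and 2.36, and the change of Lsd-1 -2.49 and -2.42, each called. That table thus gave bmm a difference between responses of opposite sign (log2 -0.13, adjusted p = 0.938), also not called.

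**Figure D3:**
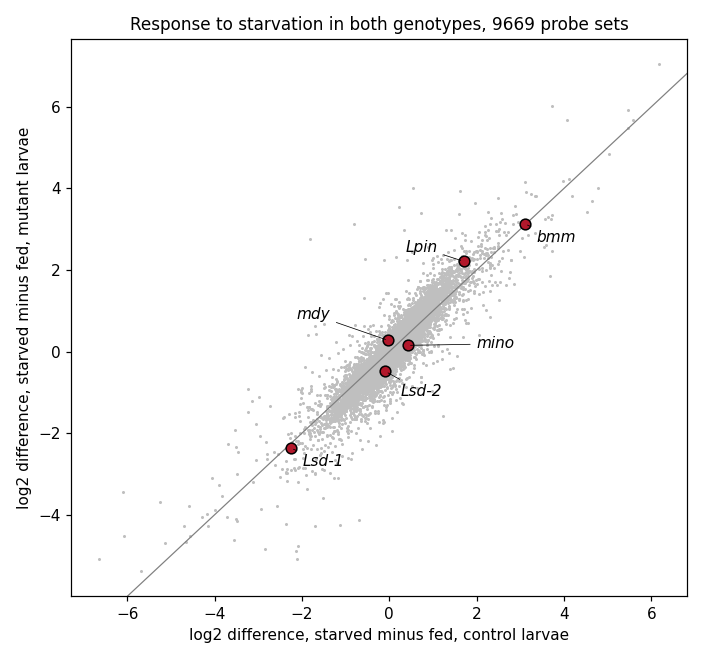
Log2 difference between starved and fed larvae in controls (x axis) and mutants (y axis) for the 9669 probe sets (grey) and the 6 genes (red); the line marks equal responses. bmm (3.10 and 3.13) and Lsd-1 (-2.26 and -2.36) lie at the line, far from the centre of the cloud, and mdy, mino and Lsd-2 lie near the centre.

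Enzymes around these genes were examined as a list of 23 glycerolipid and phospholipid enzymes, of which 19 were measured. The lists here and below were chosen with earlier results of these data known, so their counts are descriptions, not tests. Of the 19, 4 were called lower in starved mutants than in starved controls and 0 higher. The median was log2 -0.24 (all probe sets -0.01), where 3.70% of all probe sets were called lower and 3.91% higher. Of the 4 called, the largest change was that of Agpat4 (log2 -0.66 ± 0.15, limma adjusted p = 0.0224), an acylglycerophosphate acyltransferase of the step after mino. Next came Gpat4 (-0.53 ± 0.14, adjusted p = 0.045), another glycerol-3-phosphate acyltransferase. Cds (-0.51 ± 0.10, adjusted p = 0.0117) is the CDP-diacylglycerol synthase that draws phosphatidate towards phospholipids. The fourth was Agpat3 (-0.46 ± 0.13, adjusted p = 0.0484), named to complete the count. Agpat2 had a difference of log2 -0.67 ± 0.19 but did not pass (limma adjusted p = 0.0533). The probe sets of Agpat3 and Agpat4 are of the same kind as that of mdy, whose probes can match more than 1 gene. The count was 0 without control starved replicate 1 or 3, 1 without control starved replicate 2 or mutant starved replicate 3, and 2 without mutant starved replicate 1, control fed replicate 2 or mutant fed replicate 3. It was 9 after weighting the arrays, 7 when a fit held the 6 starved arrays and no others, 2 in the series matrix and with the replicate number as a block, and 1 when a change of 1.5-fold was asked for.

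Cds was also the single call of that list in fed larvae (log2 -0.63 ± 0.10, limma adjusted p = 0.012). Its values were 1754, 1488 and 1364 in control fed arrays and 926, 1075 and 968 in mutant fed arrays. After starvation they were 1961, 1786 and 1924 in controls and 1315, 1250 and 1421 in mutants. The genotypes did not overlap on either diet. The fed call of the list was lost without mutant fed replicate 1 or 3 and with the compared arrays alone, and was 2 without control fed replicate 3 or mutant fed replicate 2. On starvation 9 of the 19 rose and 5 fell in controls (36.1% and 32.1% of all probe sets), and 8 rose and 8 fell in mutants (37.5% and 38.3% of all probe sets). laza, a lipid phosphate phosphatase with activity on phosphatidate, was singled out after its values were seen, and rose by log2 2.09 in controls and 2.63 in mutants.

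Of 21 written droplet proteins and regulators of mobilisation, 18 were measured. Against starved controls, 1 was called higher and 3 lower in starved mutants (median log2 0.03). Among all probe sets 3.91% were called higher and 3.70% lower. The 3 called lower were the transcription factor gene sugarbabe (sug, log2 -1.18 ± 0.24, limma adjusted p = 0.0128), the adipokinetic hormone receptor gene AkhR (-0.93 ± 0.15, adjusted p = 0.00407) and the droplet protein gene sturkopf (-0.52 ± 0.10, adjusted p = 0.0114). The sturkopf probe set is again of the kind that can match more than 1 gene. AkhR read 663, 860 and 583 in control fed, 380, 427 and 364 in mutant fed, 544, 497 and 540 in control starved and 257, 339 and 244 in mutant starved arrays, and was the only call of the list in fed larvae (log2 -0.83 ± 0.15, adjusted p = 0.0255). The genotypes did not overlap in AkhR on either diet. The count of 3 was 1 without mutant starved replicate 3 and 0 in the series matrix. The fed call of AkhR was lost in the series matrix, with the compared arrays alone and without any of the other fed arrays than control fed replicate 3, without which the list had 2 calls.

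puml and dob, both of that list, were singled out after their values were seen. puml, the fly relative of CGI-58, which in mammals activates adipose triglyceride lipase, read 1314, 1025 and 1155 in control fed, 1140, 1557 and 1378 in mutant fed, 3821, 4339 and 4125 in control starved and 5917, 5450 and 6179 in mutant starved arrays. It rose with starvation in controls (log2 1.82 ± 0.12) and mutants (2.12 ± 0.12). It was higher in starved mutants than in starved controls by log2 0.51 ± 0.12 (limma adjusted p = 0.0276), the 1 gene of the list called higher there. That call was lost in the series matrix, with the replicate number as a block, at a change of 1.5-fold or more, and without control starved replicate 3 or mutant starved replicate 1 or 3. The number of genes in the list called higher in starved mutants was 2 with quantile normalization, with median centring and without the dimmest 40% of probe sets, and 4 with array weights. Probes of the puml probe set, too, can match more than 1 gene. dob, a paralogue of bmm, fell with starvation in controls (log2 -1.95 ± 0.16) and mutants (-1.99 ± 0.16), opposite to bmm. Its starved values of 81 to 101 are dim (250.5 was the lowest 25th percentile of any array), which leaves the size of its fall uncertain. In the RefSeq annotation of genome release 6, dob is the neighbour of Lsd-2 on the X chromosome.

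Fatty acid synthesis, which supplies the chains that mino and mdy esterify, was examined through 10 measured of 14 written genes. Of these, 5 were called lower in starved mutants than in starved controls and 1 higher, with a median of log2 -0.45. Among all probe sets 3.70% were called lower and 3.91% higher. The largest of the lower calls were the fatty acid synthase gene FASN1 (-2.65 ± 0.13, limma adjusted p = 3.41e-07), the acetyl-CoA carboxylase gene ACC (-1.33 ± 0.20, adjusted p = 0.0026) and the acetyl-CoA synthetase gene AcCoAS (-0.57 ± 0.14, adjusted p = 0.032). The 1 called higher was bigmax, the partner of the sugar sensor Mondo (0.51 ± 0.087, limma adjusted p = 0.00514). The count of 5 was 3 without control starved replicate 1 and with the replicate number as a block. It was 2 without control starved replicate 2 or 3 or mutant starved replicate 1 or 3, in the series matrix and at a change of 1.5-fold or more. The count of 1 called higher was 3 with array weights, 2 with the compared arrays alone and 0 at 1.5-fold. In fed larvae 0 of 10 were called by limma (1 had an unadjusted p under 0.05). For the difference of the starvation responses this list had 3 calls (2.59% of all probe sets were called), FASN1 (log2 -2.66 ± 0.19, adjusted p = 5.79e-05), ACC (-1.30 ± 0.29, adjusted p = 0.0424) and bigmax (0.53 ± 0.12, adjusted p = 0.0471). The calls of ACC and bigmax lay just under the threshold. The 2 negative calls were 1 in the series matrix, with the replicate number as a block, and without any single array other than control fed replicate 3, mutant fed replicate 1 or mutant starved replicate 2, and 4 with array weights. The positive call of bigmax was lost in the series matrix, with quantile normalization, median centring, the replicate block or a change of 1.5-fold asked for, and without any single array other than control fed replicate 3, mutant fed replicate 2 or mutant starved replicate 2.

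**Figure D4:**
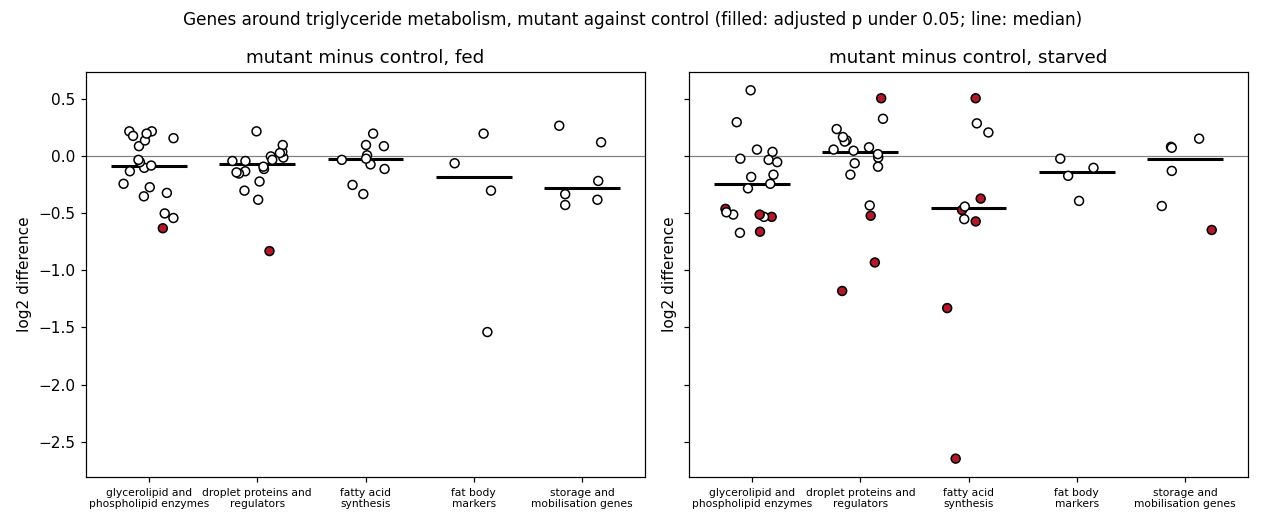
Log2 difference between mutant and control in fed (left) and starved (right) larvae for the measured genes of 3 pathway lists, the fat body markers and the 6 storage and mobilisation genes; each point is a gene, the line is the median, and filled points have a limma adjusted p under 0.05. In starved larvae filled points include FASN1 at -2.65, ACC at -1.33, sug at -1.18 and mino at -0.64.

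The genes whose pattern over the 12 arrays was most like each of the 6 were found by the root mean square distance of log2 values, each gene centred on its own mean. For bmm they were BNIP3, a mitophagy receptor gene (distance 0.174), and Adgf-D (0.251), where bmm itself varied by 1.57 about its mean. For Lpin they were CG9449 (0.122) and scyl, an inhibitor of TOR signalling (0.133), and for Lsd-1 they were CG42336 (0.221) and CG17974 (0.231). For mino they were the clock gene cwo (0.106) and Wwox (0.135), where mino varied by 0.31. mdy lay nearest ihog (0.069) and Atf6 (0.072), and Lsd-2 nearest lncRNA:iab8 (0.076) and GstE12 (0.079), but mdy and Lsd-2 varied by only 0.13 and 0.19 about their means, so that nearness there says little more than that the genes were flat. None of the 6 genes was among the nearest of another.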

How the data were processed

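Sample labels gave the 4 groups, 3 arrays each. The main table gives linear intensity, normalized by the authors in dChip and limited to Present calls, per the file headers; version, model and call rule are not given in the sources used here. The deposited series matrix holds processed intensity of 18769 probe sets (183 controls left out), its processing not stated. Columns were matched to samples by name; all 12 columns correlated best with the same sample of the series matrix.

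Values were raised to a floor of 16 (11 of 116028 dChip values lay below) and taken to log2. Probe sets were named by the platform annotation, updated through Entrez numbers (7970 with 1 symbol, 248 several, 1451 none). Group means were fitted over 12 arrays with limma 3.58.1 (R 4.3.3; 8 residual and 3.12 prior degrees of freedom), with 5 contrasts and Benjamini-Hochberg adjustment over 9669 probe sets. The code was tested on simulated data. The number of arrays limits the precision.

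The members and lists were chosen with earlier results of these data known. Named were every member, up to 3 called genes per list and genotype contrast with the largest change, and the 2 nearest genes of each member; a gene with several probe sets was represented by the brightest. The labels do not say that replicate numbers pair samples, and the numbers were not taken to. The column headers of the main table run through the 4 groups within each replicate number, and what that order stands for is not stated. Same-numbered arrays of compared groups deviated from their group means with r of -0.40 to 0.28. With 3 arrays per group this does not decide whether they pair, so fits with the number as a block are given below. No sequences are shown, since none were used here.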

Additional observations from a re-analysis of the deposited data

How the results depend on the processing

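The 30 values (6 genes, 5 comparisons) were recomputed under 23 alternatives, and 661 of 690 kept direction and side of the threshold. For many of the 690 the direction was fixed beforehand. Other floors, other settings of limma's variance estimate, the replicate block and the 1.5-fold rule leave these log2 differences unchanged. So do leaving out the dimmest probe sets, fitting the compared arrays alone and leaving out an array of a group not compared. The count thus overstates how far direction was tested. Of the 690, 12 changed sign, all of them uncalled values near 0. In the series matrix the difference of responses became log2 0.07 for Lsd-1 and -0.13 for bmm, and with median centring 0.00 for bmm. Leaving out 1 array at a time gave -0.06 to 0.34 for bmm in fed larvae between genotypes, -0.07 to 0.22 for Lpin in starved larvae, -0.09 to 0.03 for mdy on starvation of controls, and for the difference of responses -0.35 to 0.04 in Lsd-1 and -0.18 to 0.22 in bmm. The cause was not tested.

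The number of the 6 genes called between genotypes was 0 in fed and 1 in starved larvae; it became 1 and 2 with array weights, and 0 to 1 and 1 to 2 with 1 array left out. For the difference of responses it was 0, and 2 with array weights (mdy and Lsd-2). For the starvation response of mutants it was 5, and 3 when a change of 1.5-fold was asked for, since smaller changes are then not counted. With the replicate number as a block the counts were 0, 1, 4, 5 and 0 for the 5 comparisons, as without it.

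Over all probe sets the fed genotype count of 102 was 63 in the series matrix, 41 with the compared arrays alone, 193 with array weights and 47 to 272 with 1 array left out. The starved count of 736 was 376, 357 at 1.5-fold, 2439 with array weights and 329 to 940. That for the difference of responses, 250, was 26 in the series matrix, 132 with the block, 1208 with array weights and 81 to 549. The starvation counts of 6594 and 7322 were 4130 and 4463 without the dimmest 40% of probe sets, which leaves fewer to test, and 3364 and 4222 at 1.5-fold. The share of higher calls in the controls' starvation response was 52.9%, and 64.6% in the series matrix; in mutants it was 49.5% and 61.3%; between fed genotypes 17.6% and 31.7%; for the difference of responses 70.4%, and 59.8% with median centring. Of the counts of the 3 pathway lists, 597 stayed within 1.5 times and 93 did not.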
